A study of Mus musculus with 12 samples.

Results

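The prostanoid and leukotriene receptor genes were examined in mouse lung RNA: Ptger1, Ptger2, Ptger3, Ptger4, Ptgir, Ptgfr, Tbxa2r, Ptgdr2, Ltb4r1 and Cysltr1. These 10 genes were taken by name from the 49585 in the deposited table, without use of their measured values. All 10 reached 1 CPM (read counts scaled to library size) in at least 3 libraries and so were among the 16126 genes tested, although Ptgdr2 did so in 5 PBS libraries and only 1 Af library. The study, on Rgs4 in asthma, sequenced poly-A RNA of lungs from RGS4 KO mice and from wild-type (WT) controls, labelled Balb/cJ. Mice of either genotype had received Aspergillus fumigatus (Af), a mould, or the saline control PBS. The 4 groups held 3 libraries each: WT_PBS 15, 16 and 17, WT_Af 18, 19 and 20, KO_PBS 9, 10 and 11, and KO_Af 12, 13 and 14. The sources used here give neither age nor sex, nor how the knockout was made, whether animals were pooled, or in what form, by what route, at what dose and when Af was given. All 4 groups share the strain label. All KO libraries carry lower numbers than all WT libraries, so genotype and library number cannot be told apart. Within each genotype the PBS libraries carry lower numbers than the Af libraries, so the same holds for exposure there.

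Prostanoids are lipid mediators made from arachidonic acid by cyclooxygenases and terminal synthases, and leukotrienes are made from the same acid by 5-lipoxygenase. All act on G protein-coupled receptors. The prostaglandin E receptors EP2 (Ptger2) and EP4 (Ptger4) and the prostacyclin receptor IP (Ptgir) couple to Gs, raise cyclic AMP and relax airway or vascular smooth muscle. The receptors EP1 (Ptger1), FP for prostaglandin F (Ptgfr) and TP for thromboxane (Tbxa2r) raise calcium, the last 2 through Gq, and TP contracts airways and vessels. EP3 (Ptger3), the prostaglandin D receptor DP2 or CRTH2 (Ptgdr2) and the leukotriene B receptor BLT1 (Ltb4r1) couple mainly to Gi, and DP2 and BLT1 draw leukocytes into tissue. CysLT1 (Cysltr1) contracts airway smooth muscle and is the target of montelukast. Rgs4 is an RGS protein, a family that ends Gq and Gi signals by speeding GTP hydrolysis.

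The libraries held 20708884 to 30229446 reads, so the level of 3 reads, which a count of 0 allows, was 0.0983 to 0.144 CPM (counting error only). Rgs4 was 22.9 ± 2.63 CPM in WT_PBS, 45.1 ± 3.27 in WT_Af, 0.892 ± 0.282 in KO_PBS and 1.15 ± 0.311 in KO_Af (SD, n = 3 each), so that the highest KO library was far below the lowest WT one. The tissue label was checked by markers of alveolar epithelium, which summed to 8768 to 21410 CPM per library. Af parted from PBS on the first principal component (68.4% of the variance), and KO_Af 12 from the rest on the second (8.41%). Markers of squamous epithelium summed to 583.2 CPM in WT_PBS 17 and 288.7 CPM in KO_Af 12 against at most 3.83 CPM elsewhere. With both of these libraries left out, every receptor kept its side of the threshold in both Af comparisons, and only Ptger3 in WT, not called in either fit, turned direction (log2 -0.02 to 0.34).

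On GRCm38 (GENCODE M21) the genes lie on chromosomes 3 (Ptgfr, 151796502 to 151837630, minus strand, and Ptger3, 157566892 to 157645888, plus) and 14 (Ptger2, 44988195 to 45003820, plus, and Ltb4r1, 55765962 to 55768494, plus). Ptgir lies on chromosome 7 (16906490 to 16910905, plus), Ptger1 on 8 (83666678 to 83672753, plus) and Tbxa2r on 10 (81328731 to 81335172, plus). Ptger4 lies on chromosome 15 (5206661 to 5244187, minus), Ptgdr2 on 19 (10937160 to 10942511, plus) and Cysltr1 on X (106574346 to 106603679, minus). Their exons cover 1394 bases (Ltb4r1) to 6778 bases (Ptgfr). Levels of different receptors were therefore set side by side per kilobase of exon (CPM per kb, as group means). The deposited table names another version of Tbxa2r and Ptger2 than this annotation, so their lengths may differ from those the authors used. In WT_PBS lungs Tbxa2r stood highest at 4.34 CPM per kb, above Ptgfr at 2.67 without overlap of their libraries. This place rests on its exonic length of 1919 bases, since before division the mean was 8.33 CPM for Tbxa2r and 18.1 CPM for Ptgfr. Ltb4r1, Ptgir, Ptger2, Ptger1, Cysltr1, Ptger3 and Ptger4 followed between 2.16 and 1.41 CPM per kb. Neighbours among these, and Ptgfr and Ltb4r1, overlapped, so their order is not resolved. Ptgdr2 was lowest at 0.603 CPM per kb. KO_PBS lungs also had Tbxa2r first, at 6.09 CPM per kb, apart from Ptgir at 2.95, and Ptgdr2 last at 0.461. Under Af the order was different. Ltb4r1 and Ptgir came first in WT_Af at 7.82 and 6.56 CPM per kb, with overlapping libraries, and Ptger4 next at 4.63, below Ptgir without overlap. Tbxa2r followed at 3.82 and overlapped Ptger4. In KO_Af lungs Ltb4r1 reached 11.8 CPM per kb, apart from Ptgir at 5.65, which in turn lay apart from Ptger4 at 3.998. Ptgfr and Ptgdr2 closed the order in both Af groups, at 0.798 and 0.258 CPM per kb in WT_Af and 0.790 and 0.184 in KO_Af.

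**Figure D1:**
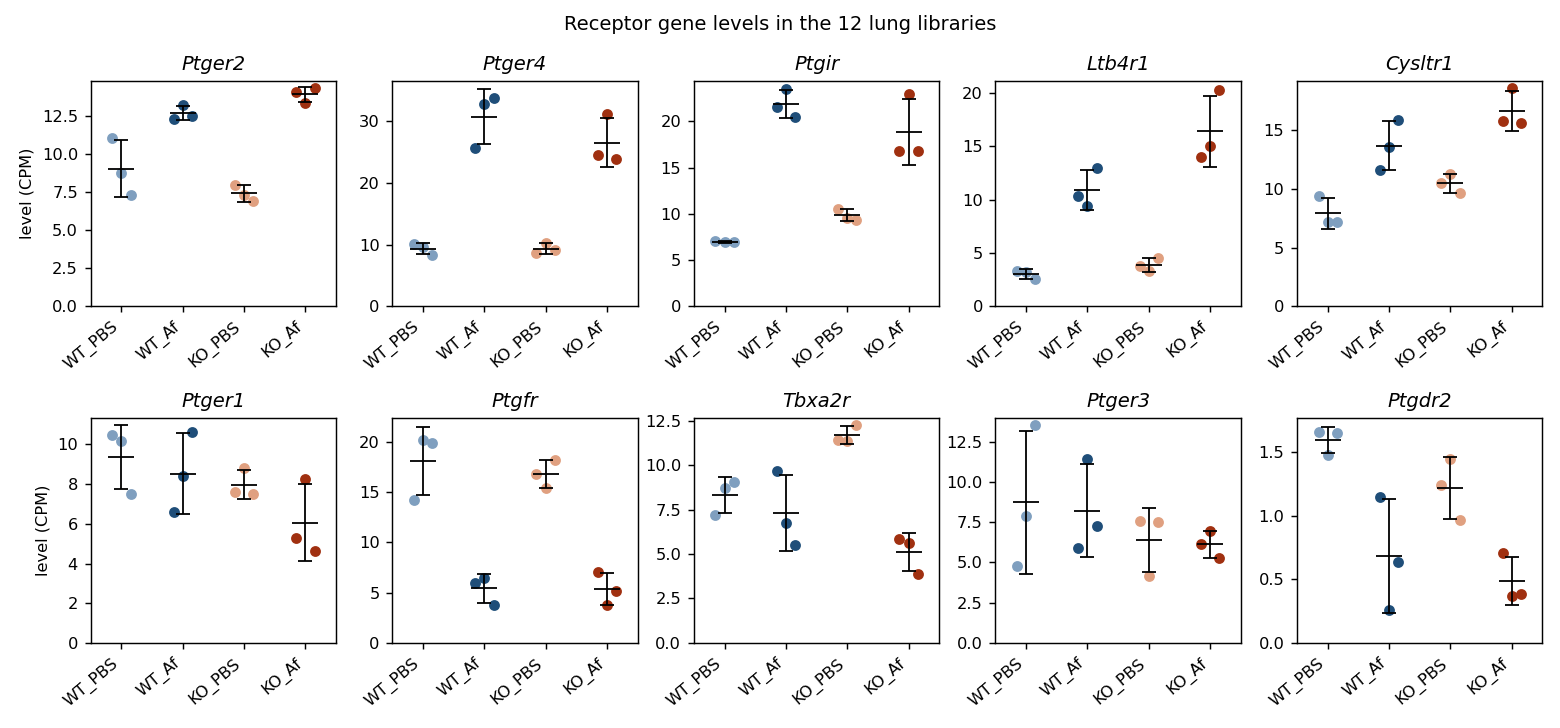
Level of each receptor gene (vertical axis, CPM, linear and starting at 0) in the 4 groups (horizontal axis), with 1 point per library and the group mean ± SD as bar and whiskers. Ptger4, Ptgir, Ltb4r1, Ptger2 and Cysltr1 sit higher in all Af than in all PBS libraries of their genotype, and Ptgfr and Ptgdr2 lower.

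Af against PBS asks how the receptors change in lungs exposed to the mould. In WT lungs 5 of the 10 receptors rose (Ptger4, Ptgir, Ltb4r1, Cysltr1 and Ptger2), 2 fell (Ptgfr and Ptgdr2) and 3 did not pass the test (Ptger1, Ptger3 and Tbxa2r). In KO lungs the same 5 rose and Tbxa2r joined the fallers, 3 in all. The changes were common among all genes too: 51.8% of tested genes were called in WT (26.2% higher, 25.6% lower) and 57.9% in KO (28.7% higher, 29.2% lower). A count of 7 or 8 of 10 is thus little above the background. The median log2 difference of the receptors was 0.23 in WT and 0.31 in KO, beside -0.02 over all tested genes in each. Differences are log2 of (CPM + 0.5), a scale that compresses changes at low levels, with adjusted p-values from limma over all tested genes. In whole lung, more cells of a type and more RNA per cell cannot be told apart.

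The Gs-coupled receptors all rose. Ptger4 read 10.1, 9.55 and 8.36 CPM in WT_PBS and 25.6, 32.9 and 33.8 CPM in WT_Af. In KO it read 8.60, 10.3 and 9.06 CPM under PBS and 24.6, 31.2 and 23.9 CPM under Af. Every Af library lay above every PBS library, and no library of either group stood out. The rise was 3.16-fold in WT (log2 1.66 ± 0.14 SE, adjusted p = 3.83e-06) and 2.75-fold in KO (log2 1.46 ± 0.14, adjusted p = 6.31e-06). Ptgir, the prostacyclin receptor, read 7.08, 6.90 and 6.90 CPM in WT_PBS and 21.6, 23.5 and 20.5 in WT_Af. In KO_PBS it read 10.6, 9.59 and 9.36 CPM and in KO_Af 16.8, 23.0 and 16.8. The lowest 3 libraries are thus all WT_PBS, and the groups under PBS and Af do not overlap in either genotype. Its rise was 2.996-fold in WT (log2 1.58 ± 0.12, adjusted p = 2.30e-06) and 1.85-fold in KO (log2 0.89 ± 0.12, adjusted p = 9.42e-05). Ptger2 moved less, from 11.0, 8.72 and 7.32 to 12.3, 13.2 and 12.5 CPM in WT, and from 7.96, 7.32 and 6.90 to 14.0, 13.3 and 14.3 CPM in KO. WT_PBS 15 came closest to the Af libraries but remained below them. The difference was 0.48 ± 0.13 on the log2 scale in WT (adjusted p = 0.00889) and 0.87 ± 0.13 in KO (adjusted p = 1.71e-04). Markers of monocytes and recruited macrophages, cells that carry EP4 and EP2, summed to 339 to 367 CPM in WT_PBS, 757 to 855 in WT_Af, 381 to 423 in KO_PBS and 796 to 1136 in KO_Af. Of the 8 entries in that list (Itgam has 2 identifiers) 7 rose in WT and 6 in KO. Markers of smooth muscle summed to 976 to 1193 CPM in WT_PBS, 1298 to 1540 in WT_Af, 1002 to 1094 in KO_PBS and 1469 to 1597 in KO_Af. Of these 6 genes 4 rose in each genotype, while Myh11 fell in KO and Cnn1 passed in neither. None of these markers was at 0, and their part in the rise of the Gs-coupled receptors was not tested.

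Of the calcium-raising receptors, FP fell and EP1 did not pass the test. Ptgfr, the FP receptor gene, read 14.2, 20.2 and 19.9 CPM in WT_PBS and 5.998, 6.45 and 3.78 in WT_Af. In KO it read 16.8, 15.4 and 18.2 CPM under PBS and 7.04, 3.81 and 5.20 under Af. All 6 Af libraries lay below all 6 PBS libraries. The level was 3.18-fold lower in WT (log2 -1.67 ± 0.23 SE, adjusted p = 1.20e-04) and 3.02-fold lower in KO (log2 -1.60 ± 0.23, adjusted p = 1.22e-04). Markers of heart muscle (Myh6, Actc1, Tnnt2, Tnni3, Nppa, Myl7 and Sln, a list made after the values were seen) summed to 899 to 1712 CPM in WT_PBS, 128 to 561 in WT_Af, 985 to 1441 in KO_PBS and 118 to 488 in KO_Af. Of these 7 genes 2 fell in WT (Myh6 and Actc1) and 4 in KO (these with Tnni3 and Myl7), and the others did not pass. Fibroblast markers fell for 5 of 6 genes in WT and 4 of 6 in KO, with 1 riser in each. Over all tested genes 25.6% were called lower in WT and 29.2% in KO. The fibroblast sum overlapped between exposures, at 1525 to 2138 CPM in WT_PBS and 1422 to 1630 in WT_Af. In KO it was 1402 to 1532 CPM under PBS and 1320 to 1741 under Af. The part of either in the fall of Ptgfr was not tested.

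Tbxa2r, the thromboxane receptor gene, read 7.20, 8.72 and 9.07 CPM in WT_PBS and 9.69, 6.75 and 5.54 in WT_Af, where WT_Af 18 was higher than any WT_PBS library. It read 11.4, 11.4 and 12.3 CPM in KO_PBS and 5.86, 5.65 and 3.89 in KO_Af, which do not overlap. The difference passed the test in KO (log2 -1.13 ± 0.19 SE, adjusted p = 4.45e-04) and not in WT (log2 -0.20, 95% interval -0.63 to 0.22, adjusted p = 0.402). Endothelial markers summed to 3229 to 3944 CPM in WT_PBS, 2701 to 3347 in WT_Af, 4425 to 4560 in KO_PBS and 2261 to 3334 in KO_Af. Of these 6 genes 3 fell in WT and 4 in KO, and the others did not pass. Both the endothelial sum and Tbxa2r were higher in all KO_PBS libraries than in any other library. The endothelial sums of the other groups overlapped, so the order of those groups is not resolved. The part of endothelial cells was not tested. Markers of platelets, which are rich in TP, summed to 54.4 to 60.0 CPM in WT_PBS, 66.7 to 78.6 in WT_Af, 54.9 to 55.7 in KO_PBS and 74.4 to 87.5 in KO_Af. Of 5 tested platelet markers only Pf4 rose in either genotype, and Gp1ba fell in KO, and their part was not tested either. Ptger1, the EP1 receptor gene, read 10.5, 10.2 and 7.51 CPM in WT_PBS, 6.57, 8.39 and 10.6 in WT_Af, 7.61, 8.81 and 7.52 in KO_PBS and 5.27, 8.27 and 4.63 in KO_Af. The groups overlapped, and the log2 difference was -0.14 in WT (95% interval -0.62 to 0.34, adjusted p = 0.612) and -0.41 in KO (-0.88 to 0.07, adjusted p = 0.129). Without KO_Af 13 the KO value was -0.64 and was called (adjusted p = 0.0188).

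The Gi-coupled prostanoid receptors were the least precisely measured. Ptger3, the EP3 receptor gene, read 4.76, 7.90 and 13.5 CPM in WT_PBS, 5.90, 11.4 and 7.26 in WT_Af, 7.57, 4.12 and 7.52 in KO_PBS and 6.13, 6.94 and 5.28 in KO_Af. Its highest library was WT_PBS 17, and within WT_PBS its SD was 50.8% of the mean. The log2 difference was -0.02 in each genotype with a 95% interval of -0.77 to 0.73 (adjusted p = 0.965 in WT and 0.959 in KO), wide enough to hold a change of the size seen in Ptger2 in WT. Ptgdr2, the DP2 receptor gene, read 1.66, 1.48 and 1.65 CPM in WT_PBS and 1.15, 0.262 and 0.637 in WT_Af. In KO it read 1.24, 1.45 and 0.967 CPM under PBS and 0.708, 0.368 and 0.386 under Af. These levels rest on 8 to 40 reads per library, yet the exposures do not overlap in either genotype. The fall was called in WT (log2 -0.89 ± 0.26 SE, adjusted p = 0.0135) and in KO (log2 -0.81 ± 0.26, adjusted p = 0.0194). It was lost in WT without WT_Af 19 (adjusted p = 0.0565), and in KO without KO_PBS 9 (0.0524), KO_PBS 10 (0.0696), KO_Af 13 (0.0583) or KO_Af 14 (0.0583, all adjusted p). Ptgdr2 had passed the low-value filter mainly through the PBS groups, so a fall is what the filter favours. Ccdc86, on the opposite strand, covers 39.0% of its exonic bases and itself rose with Af (log2 0.75 in WT and 1.053 in KO), and reads of the pair cannot be told apart if counting was not stranded. Type 2 lymphocytes and eosinophils carry DP2. Markers of type 2 lymphocytes summed to 28.9 to 30.5 CPM in WT_PBS, 96.7 to 109.6 in WT_Af, 33.3 to 37.3 in KO_PBS and 95.3 to 118.6 in KO_Af. Markers of eosinophils summed to 25.9 to 30.8, 68.0 to 154.5, 30.8 to 47.9 and 116.5 to 158.1 CPM in the same groups, with 4 of 6 genes up in each genotype. Of the 8 type 2 lymphocyte markers, 8 rose in WT, while 7 rose and 1 fell in KO. The faller was Gata3, from a mean of 15.6 CPM in KO_PBS to 9.48 CPM in KO_Af (log2 -0.74). Il13, Il5 and Il4, and the eosinophil marker Epx, were below 1 CPM in every PBS library. These markers passed the filter only through Af libraries and so had to differ. Over all tested genes 26.2% were called higher in WT and 28.7% in KO. Both marker sums were higher in the Af libraries, and their part in the level of Ptgdr2 was not tested.

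Both leukotriene receptors rose. Ltb4r1, the gene of BLT1, read 3.31, 3.21 and 2.50 CPM in WT_PBS and 10.4, 9.37 and 13.0 in WT_Af. In KO_PBS it read 3.77, 3.27 and 4.53 CPM and in KO_Af 14.0, 15.0 and 20.2, with KO_Af 14 highest of all 12. The exposures do not overlap, and the rise was 3.24-fold in WT (log2 1.70 ± 0.18 SE, adjusted p = 1.80e-05) and 3.87-fold in KO (log2 1.95 ± 0.18, adjusted p = 4.61e-06). Neutrophil markers, from cells that carry BLT1, summed to 119 to 193 CPM in WT_PBS, 379 to 509 in WT_Af, 245 to 468 in KO_PBS and 492 to 753 in KO_Af, with 5 of 6 genes up in WT and 2 of 6 in KO. The part of neutrophils was not tested. Cysltr1, the gene of CysLT1, read 9.40, 7.16 and 7.18 CPM in WT_PBS, 11.7, 13.6 and 15.9 in WT_Af, 10.5, 11.3 and 9.67 in KO_PBS and 15.8, 18.6 and 15.6 in KO_Af. The 3 highest PBS libraries were KO_PBS, and no PBS library reached an Af library of either genotype. The difference was 0.76 ± 0.14 on the log2 scale in WT (adjusted p = 9.90e-04) and 0.64 ± 0.14 in KO (adjusted p = 0.00226).

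**Figure D2:**
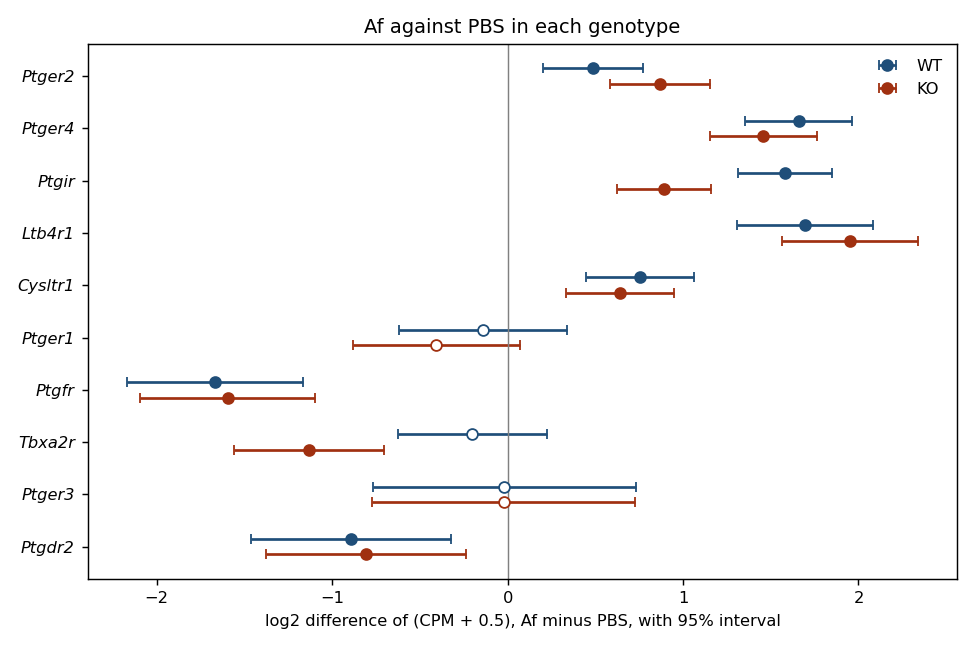
Log2 difference of (CPM + 0.5), Af minus PBS (horizontal axis), for each receptor in WT and KO lungs, with 95% intervals. Filled points are genes called at adjusted p under 0.05 and open points are not; Ltb4r1, Ptger4 and Ptgir lie farthest right in WT, Ptgfr farthest left.

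The promoters of the 3 receptors with the largest rises in WT and of Ptgdr2, the one with a searched motif, are shown for orientation, as the 250 bases before the gene start. They come from the RefSeq promoter table of GRCm38.p6, which matched 8 of the 10 receptors (9 windows), and lie outside annotated exons of the GENCODE M21 annotation. Each is 5′ to 3′ on the gene's strand: Ptger4 at chr15:5244188-5244437 (minus), Ptgir at chr7:16906240-16906489 (plus), Ltb4r1 at chr14:55765712-55765961 (plus) and Ptgdr2 at chr19:10936910-10937159 (plus). Capitals mark the only match found.
Ptger4: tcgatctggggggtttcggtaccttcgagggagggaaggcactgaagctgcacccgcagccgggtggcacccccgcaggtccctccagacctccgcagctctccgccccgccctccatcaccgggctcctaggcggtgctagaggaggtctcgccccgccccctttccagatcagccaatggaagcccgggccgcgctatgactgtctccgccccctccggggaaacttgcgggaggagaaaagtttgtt
Ptgir: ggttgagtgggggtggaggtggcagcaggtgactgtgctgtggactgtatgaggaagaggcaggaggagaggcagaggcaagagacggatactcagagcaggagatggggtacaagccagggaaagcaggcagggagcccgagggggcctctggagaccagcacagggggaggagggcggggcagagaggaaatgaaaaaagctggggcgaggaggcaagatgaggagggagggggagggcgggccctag
Ltb4r1: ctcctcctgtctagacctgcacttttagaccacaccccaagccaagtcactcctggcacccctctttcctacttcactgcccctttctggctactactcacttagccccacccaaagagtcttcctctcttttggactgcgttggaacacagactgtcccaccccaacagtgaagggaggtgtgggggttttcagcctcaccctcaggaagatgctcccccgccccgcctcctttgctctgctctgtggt
Ptgdr2: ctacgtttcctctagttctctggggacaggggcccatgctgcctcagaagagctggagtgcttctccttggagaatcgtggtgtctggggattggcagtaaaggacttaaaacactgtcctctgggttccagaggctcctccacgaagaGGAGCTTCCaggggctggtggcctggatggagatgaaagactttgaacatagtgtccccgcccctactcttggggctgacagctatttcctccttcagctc
Searched on both strands were the STAT6 type site (TTC and GAA spaced by 4 bases), TGACGTCA (the cyclic AMP response element), TGANTCA (AP-1) and GGAANNTCC (a spaced GGAA and TCC). These occur in 5.85%, 1.55%, 6.75% and 3.59% of the 32851 promoter windows of the table. The windows of the 3 risers hold none of them. That of Ptgdr2 holds GGAGCTTCC, a match to GGAANNTCC on the other strand. The GC content was 66.8% for Ptger4, 63.6% for Ptgir, 56.8% for Ltb4r1 and 55.2% for Ptgdr2, beside a median of 52.4% over all windows.

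Summed by class, the Gs-coupled and calcium-raising prostanoid receptors shifted towards the cyclic AMP-raising class, as a description with no test. The leukotriene receptors and the Gi-coupled Ptger3 and Ptgdr2 enter neither sum. Cysltr1, whose receptor contracts airway smooth muscle, is thus left out, and it rose as well. Its mean went from 1.54 to 2.66 CPM per kb in WT and from 2.04 to 3.24 in KO. Ptger2, Ptger4 and Ptgir together stood at 4.74 to 5.77 CPM per kb in WT_PBS and 5.499 to 5.992 in KO_PBS. Under Af they stood at 12.7 to 14.5 in WT and 11.4 to 14.15 in KO. Ptger1, Ptgfr and Tbxa2r together stood at 7.77 to 9.39 CPM per kb in WT_PBS and 9.81 to 10.45 in KO_PBS, and at 5.39 to 7.14 in WT_Af and 3.65 to 5.06 in KO_Af. The ratio of the first sum to the second was 0.524 to 0.743 in WT_PBS and 0.526 to 0.610 in KO_PBS, below 1 in all 6 PBS libraries. It was 1.78 to 2.53 in WT_Af and 2.26 to 3.13 in KO_Af, above 1 in all 6 Af libraries. Within the 4 prostaglandin E receptors, Ptger4 took 22.0% of the summed level per kb in WT_PBS, 45.9% in WT_Af, 25.9% in KO_PBS and 45.0% in KO_Af. Ptger1 took 26.9%, 15.4%, 27.0% and 12.3% in the same groups. Its level is uncertain if counting was not stranded, and with it these shares and the calcium-raising sum.

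**Figure D3:**
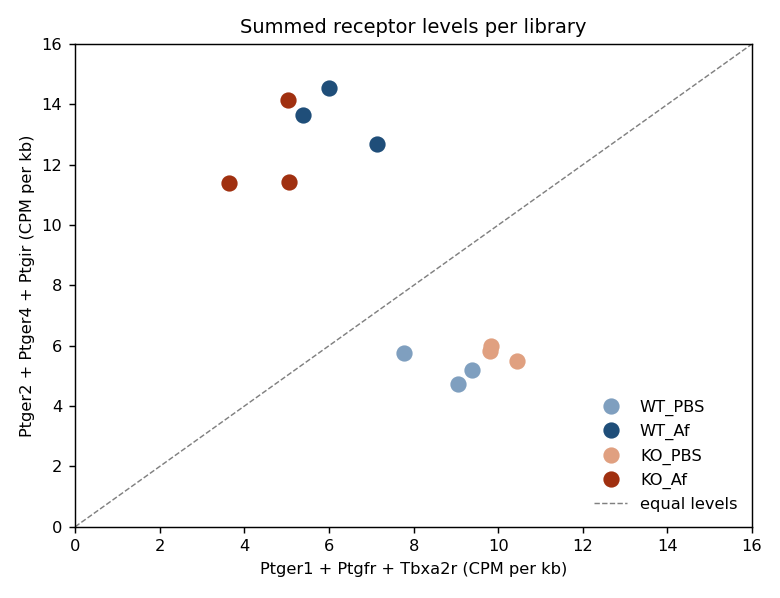
Summed level per kilobase of exon of Ptger1, Ptgfr and Tbxa2r (horizontal axis, CPM per kb) against that of Ptger2, Ptger4 and Ptgir (vertical axis, CPM per kb), 1 point per library coloured by group, with a dashed line of equal levels. The 6 PBS libraries lie below the line and the 6 Af libraries above it.

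KO against WT asks how the receptors differ between the genotypes at the same exposure, where genotype cannot be told apart from library number. Under PBS no receptor passed the test (0 of 10 by limma and by edgeR, 1 by DESeq2; 3 had an unadjusted p under 0.05), beside 3.55% of all tested genes called. The 2 genotypes did not overlap for 4 of 10 receptors (Ptgir, Tbxa2r, Ptgdr2 and Cysltr1), close to the 33.1% of all tested genes. Ptgir came nearest: its KO_PBS libraries, 9.36 to 10.6 CPM, all lay above its WT_PBS libraries, 6.90 to 7.08 CPM, with a log2 difference of 0.47 (95% interval 0.20 to 0.74, adjusted p = 0.0613). Ptgir was called by DESeq2, with upper quartile scaling, with array weights and in a fit of the 2 PBS groups alone. Leaving out KO_Af 12 or KO_Af 13, which changes only the shared estimate of the spread, also gave a call (adjusted p = 0.0334 and 0.0181). The difference was 0.47 for Tbxa2r (0.05 to 0.90, adjusted p = 0.233) and 0.39 for Cysltr1 (0.08 to 0.70, adjusted p = 0.165). The endothelial marker sum given above was also higher in all KO_PBS than in all WT_PBS libraries, and its part in the levels of Ptgir and Tbxa2r was not tested.

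Under Af no receptor passed either (0 of 10 by limma, edgeR and DESeq2, with 3 at an unadjusted p under 0.05), beside 0.0868% of tested genes called. The genotypes did not overlap for 2 of 10 receptors (Ltb4r1 and Ptger2), beside 13.8% of tested genes. Ltb4r1 differed most, with KO_Af at 14.0 to 20.2 CPM and WT_Af at 9.37 to 13.0 CPM (log2 0.56, 95% interval 0.18 to 0.95, adjusted p = 0.342). Ptger1 (log2 -0.48, adjusted p = 0.446) and Tbxa2r (log2 -0.46, adjusted p = 0.431) were the next in size, both lower in KO. Averaged over both exposures, the count was again 0 of 10 by limma and by edgeR, with 3 at an unadjusted p under 0.05 and 2 called by DESeq2 (Cysltr1 and Ltb4r1), beside 2.16% of tested genes. The differences of the leukotriene receptors were 0.44 for Ltb4r1 (95% interval 0.16 to 0.71, adjusted p = 0.0954) and 0.34 for Cysltr1 (0.12 to 0.55, adjusted p = 0.101) on the log2 scale. Neutrophil markers also summed higher in all KO_PBS than in all WT_PBS libraries. Under Af their sums overlapped, at 379 to 509 CPM in WT_Af and 492 to 753 in KO_Af. The part of neutrophils in these differences was not tested. For Ptger4 and Ptgfr the averaged difference was -0.11 (-0.32 to 0.11) and -0.06 (-0.41 to 0.30).

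Whether Af acted differently in the 2 genotypes was tested as an interaction, in which no receptor passed (0 of 10 by limma and edgeR, 2 at an unadjusted p under 0.05, and 1, Ptgir, by DESeq2), beside 0.0062% of tested genes. For Ptgir the log2 rise was 0.89 in KO and 1.58 in WT, and the interaction was -0.69 ± 0.17 (SE, 95% interval -1.07 to -0.31, adjusted p = 0.162). The Ptgir means were 6.96 ± 0.104 CPM in WT_PBS, 9.83 ± 0.633 in KO_PBS, 21.9 ± 1.52 in WT_Af and 18.8 ± 3.58 in KO_Af (SD, n = 3). Without KO_Af 13 the interaction of Ptgir was called (adjusted p = 0.0227). For Tbxa2r the interaction was -0.93 ± 0.27 (-1.53 to -0.33, adjusted p = 0.219), so the fall in KO beside none called in WT was not shown to differ. For the other 8 receptors the interval of the interaction held 0, for example -0.63 to 0.23 for Ptger4 and -0.63 to 0.78 for Ptgfr.

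**Figure D4:**
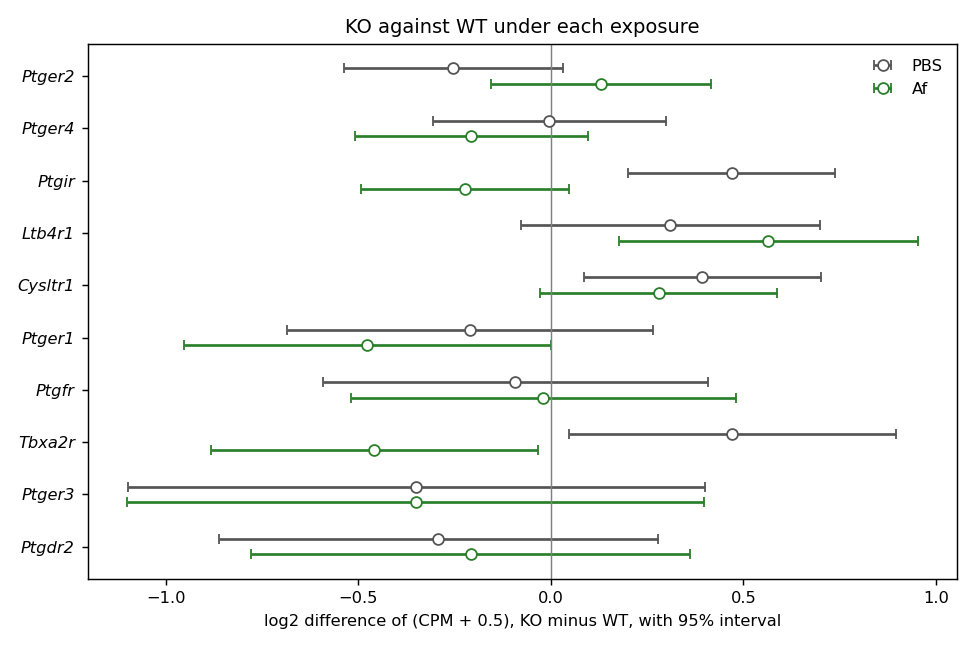
Log2 difference of (CPM + 0.5), KO minus WT (horizontal axis), for each receptor under PBS and under Af, with 95% intervals. All points are open, that is not called at adjusted p under 0.05; Ptgir, Tbxa2r and Cysltr1 lie right of 0 under PBS and Ltb4r1 under Af.

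The genes nearest in pattern to each receptor were taken as those with the smallest root mean square difference of log2 values, each centred on its own mean over the 12 libraries. These values are a description, since most of the receptors share a called Af shift (Ptger1 and Ptger3 do not). Ptger4 was nearest to Cenpn (0.141), a centromere protein gene, and Tmem173 (0.144), which encodes the DNA sensing adaptor STING. Ptgir was nearest to Mcm2 (0.149) and Mcm3 (0.158), subunits of the replicative helicase, Ptger2 to the costimulatory ligand gene Cd86 (0.0954) and Tes (0.1002), and Cysltr1 to Cyth4 (0.116) and Slc38a6 (0.126). Ltb4r1 was nearest to Pla2g7 (0.155), which encodes the platelet-activating factor hydrolase of plasma, and to Srgn (0.175), the proteoglycan of leukocyte granules. Ptgfr was nearest to Fsd2 (0.142) and Actc1 (0.189), a muscle gene and cardiac actin, and Tbxa2r to Tdrp (0.168) and Rgs3 (0.177), a relative of Rgs4. Ptgdr2 was nearest to Ppp1r1b (0.192) and Il17re (0.203), and Ptger1 to Impg2 (0.124) and Prdm15 (0.154). Ptger3 had no close neighbour, with Aacs at 0.219 and Pparg at 0.250. Among the receptors themselves, Ptger4 and Ptgir were nearest to each other (0.268), as were Ptger2 and Cysltr1 (0.270), while Ptgfr and Ltb4r1 lay farthest apart (1.785).

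Of 13 tested genes of prostanoid synthesis (15 listed), 9 rose and 0 fell with Af in WT, and 10 rose and 0 fell in KO, beside 26.2% and 28.7% of all tested genes called higher. Pla2g4c, a cytosolic phospholipase A2 gene, went from 0.491 ± 0.185 to 13.4 ± 1.69 CPM in WT and from 0.418 ± 0.106 to 14.0 ± 7.03 in KO (SD, n = 3; log2 3.82 and 3.85, limma adjusted p = 4.06e-06 and 2.50e-06). It was below 1 CPM in every PBS library, passed the filter only through Af libraries and so had to differ. The size of its difference depends on the added 0.5. Tbxas1, which makes thromboxane, the ligand of TP, went from 17.7 ± 1.99 to 49.0 ± 7.43 CPM in WT (log2 1.44, adjusted p = 6.96e-06) and from 16.7 ± 1.505 to 57.8 ± 7.23 in KO (log2 1.76, adjusted p = 1.12e-06). Ptges, the inducible prostaglandin E synthase that supplies the EP receptors, went from 29.9 ± 0.948 to 88.4 ± 16.1 CPM in WT (log2 1.53, adjusted p = 2.38e-05) and from 39.2 ± 6.44 to 97.8 ± 20.7 in KO (log2 1.3, adjusted p = 5.55e-05). Of 7 genes of prostanoid breakdown and transport, 1 rose and 2 fell in each genotype, beside 25.6% (WT) and 29.2% (KO) of all tested genes called lower. Hpgd, which inactivates prostaglandins, fell from 270 ± 84.6 to 134 ± 19.9 CPM in WT (log2 -0.97, adjusted p = 0.00783) and from 373 ± 39.6 to 167 ± 54.7 in KO (log2 -1.20, adjusted p = 0.00182). Cbr2, a lung carbonyl reductase, fell by 1.90 on the log2 scale in WT and 1.99 in KO, and Ptgr1, prostaglandin reductase, rose by 0.89 and 1.12.

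Of 11 genes of leukotriene synthesis, 3 rose and 1 fell in WT, and 4 rose and 1 fell in KO, shares of risers near those over all tested genes. Alox5ap, the partner of 5-lipoxygenase, went from 33.6 ± 1.06 to 76.1 ± 9.75 CPM in WT and from 45.5 ± 2.02 to 102 ± 14.9 in KO (SD, n = 3; log2 1.16 and 1.15, limma adjusted p = 1.20e-05 and 9.16e-06). Ggt5, which turns leukotriene C into leukotriene D, the ligand of CysLT1, rose by 0.73 and 1.049 on the log2 scale in WT and KO. Dpep1, which turns leukotriene D into leukotriene E, fell by 1.86 and 1.42. Between genotypes, Alox5 stood higher in KO over both exposures (log2 0.36, adjusted p = 0.00807), as did Alox5ap (log2 0.42, adjusted p = 0.0232). The call of Alox5ap was lost without WT_PBS 17, WT_Af 19, KO_PBS 9, KO_PBS 10 or KO_PBS 11 (adjusted p = 0.0596 to 0.0692). Under PBS, Alox5 was also called (log2 0.34, adjusted p = 0.0391), and Ptges3, a prostaglandin E synthase and cochaperone, was lower in KO (log2 -0.53, adjusted p = 0.012). The call of Ptges3 was lost without WT_PBS 17 (adjusted p = 0.0518), KO_PBS 9 (0.0583) or KO_PBS 10 (0.0684), with log2 values of -0.51 to -0.50.

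Among 7 tested receptors of other lipid mediators (10 listed), 3 rose and 2 fell in WT and 1 rose and 3 fell in KO. The shares over all tested genes were 26.2% higher and 25.6% lower in WT, and 28.7% and 29.2% in KO. Ptgdr, the DP1 receptor gene, which couples to Gs, was at 0 to 0.130 CPM in the 6 PBS libraries, at or below the level of 3 reads. It was at 1.82, 1.28 and 0.974 CPM in WT_Af and 1.10, 1.43 and 0.733 in KO_Af, and was called in both (log2 1.72 and 1.44, limma adjusted p = 9.08e-05 and 2.41e-04). It passed the filter only through Af libraries and so had to differ, and the size of its difference depends on the added 0.5. Gpr17 fell in WT (log2 -1.36) and KO (log2 -0.91). It was below 1 CPM in every Af library and passed the filter only through PBS libraries. A fall is thus what the filter favours, and the added 0.5 compresses its size. Cysltr2, the second cysteinyl leukotriene receptor gene, was at 0.706 ± 0.149 CPM in WT_PBS and 1.47 ± 0.149 in KO_PBS (SD, n = 3; log2 0.71, adjusted p = 0.0376), and Gpr132 at 7.12 ± 1.40 and 12.8 ± 1.69 CPM (log2 0.81, adjusted p = 0.0379). Ltb4r2, the second leukotriene B receptor gene, reached at most 0.501 CPM and was not tested.

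Of 10 genes of the G proteins that these receptors use, 3 rose and 2 fell in WT and 2 rose and 2 fell in KO. Over all tested genes 26.2% were called higher and 25.6% lower in WT, and 28.7% and 29.2% in KO. Gna15, the Gq family member of blood cells, rose by 1.046 and 1.16 on the log2 scale, Gna11 fell by 0.45 and 0.56, and Gnai3 rose by 0.46 and 0.66. Of 10 genes that cyclic AMP is known to induce, 1 rose and 4 fell in WT, and 3 rose and 3 fell in KO, beside the same shares over all tested genes. A link of this list to the Gs-coupled receptors was not tested. Areg, an epidermal growth factor receptor ligand that is also in the type 2 lymphocyte list, rose from 2.48 ± 0.874 to 9.90 ± 0.555 CPM in WT and from 1.27 ± 0.327 to 12.3 ± 1.27 in KO (SD, n = 3; limma adjusted p = 2.56e-05 and 8.25e-07). Sik1, a kinase gene induced through CREB, fell by 0.63 in WT and 0.72 in KO on the log2 scale, and Nr4a2, a nuclear receptor gene, fell by 0.63 and 1.14. Sik1 stood higher in KO under PBS (log2 0.69, adjusted p = 0.0376) and over both exposures (log2 0.65, adjusted p = 0.0158). Of the calls under PBS, several lost their call, though not their direction or size, with 1 library left out. That of Sik1 was lost without any 1 of the 6 PBS libraries or WT_Af 19 (log2 0.61 to 0.79, adjusted p up to 0.157) and, over both exposures, without KO_PBS 10 (log2 0.61, adjusted p = 0.0554). That of Alox5 was lost without any 1 of the 6 PBS libraries, WT_Af 18 or WT_Af 19 (log2 0.305 to 0.372, adjusted p up to 0.148). That of Gpr132 was lost without WT_PBS 15, WT_PBS 17, WT_Af 19 or any 1 KO_PBS library (log2 0.67 to 0.88, adjusted p up to 0.150). That of Cysltr2 was lost without any 1 of the 6 PBS libraries, WT_Af 19 or WT_Af 20 (log2 0.61 to 0.78, adjusted p up to 0.136), with no filter on low values (adjusted p = 0.0784) and in the 2 PBS groups alone (0.0518). With no filter, limma also lost the PBS calls of Sik1 (adjusted p = 0.0714), Alox5 (0.0503) and Gpr132 (0.073). Sik1 was lost without the mean-variance trend (0.0538). Leaving out both WT_PBS 17 and KO_Af 12 lost Alox5 (0.0721) and Gpr132 (0.0601).

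**Figure D5:**
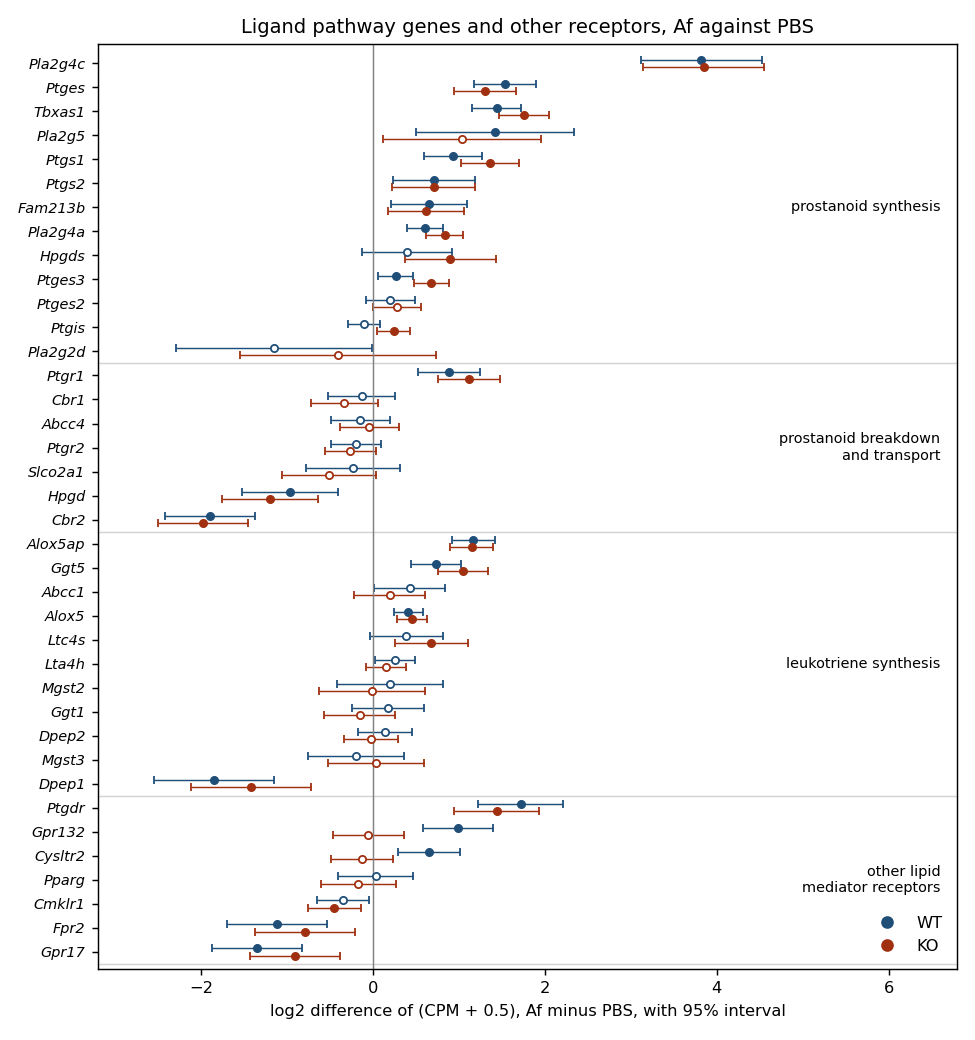
Log2 difference of (CPM + 0.5), Af minus PBS (horizontal axis), with 95% intervals, in WT and KO lungs. Shown are all tested genes of prostanoid synthesis, prostanoid breakdown and transport, leukotriene synthesis and receptors of other lipid mediators. Filled points are called at adjusted p under 0.05; Pla2g4c lies farthest right and Cbr2 and Dpep1 farthest left in WT.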

How the data were processed

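Per the labels' protocols, Qiagen RNEasy served for extraction and the Illumina Truseq mRNA kit for library preparation. The submitters' processing notes name cutadapt 1.18, STAR 2.7.6a and RSEM 1.3.0, and the builds GRCm38 and GRCh38 without their roles. The deposited table holds, as the authors named it, a signal of RSEM CPM adjusted by TMM per gene and library. In every library 100% of values were whole multiples of 1 read (tolerance 0.01), which gave read counts. Replicate pairs correlated at 0.970 to 0.993 and none was a copy (chi-square over degrees of freedom at least 11.3).

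The 16126 genes that reached 1 CPM in 3 or more of 12 libraries were tested on log2(CPM + 0.5) with limma 3.58.1 (R 4.3.3, mean-variance trend, 1 fit over 4 groups, Benjamini-Hochberg adjusted p under 0.05). P-values measure the spread between libraries, which the labels do not tie to separate animals. Alternatives were other pseudocounts, filters, scalings and variance models, each library left out, and edgeR 4.0.16 and DESeq2 1.42.0 on recovered counts. On simulated data for Af against PBS in WT (16126 genes) 59% of 2-fold changes and 19% of 1.5-fold ones were recovered. In the same simulation 5 unchanged genes were called. The rates hold for that simulation only, and recovery at the measured share of called genes (51.8%) was not tested.

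The receptors, lists and tests were chosen with earlier results of these data known. Named were all receptors, their 2 nearest genes, and from each pathway list up to 3 called genes with the smallest p for Af in WT and up to 2 per genotype comparison. The heart muscle list, Ccdc86 and Ltb4r2 were named after values were seen. The sources used here do not say whether counting was stranded, so genes that overlap another, Ptgdr2 and Ptger1 among them, are uncertain. Coordinates and exon lengths are from GENCODE M21 (GRCm38).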

Additional observations from a re-analysis of the deposited data

How the results depend on the processing

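Ptger2, Ptger4, Ptgir, Ltb4r1, Cysltr1 and Ptgfr in both genotypes, and Tbxa2r in KO, kept their direction and call for Af against PBS in all 25 alternatives. No paired analysis was possible because the groups share no library number. Between genotypes under PBS, the count of receptors called went from 0 to 1 with upper quartile scaling, 2 with array weights, 2 in the groups compared alone and 1 with DESeq2, and was 0 to 1 with single libraries left out. Under Af it was 5 with array weights, over both exposures 3 with array weights and 2 with DESeq2, and for the interaction 2 with array weights, 1 with DESeq2 and 0 to 1 with single libraries left out. Over all tested genes the calls ran from 131 to 2646 (573 in the main analysis) under PBS, from 3 to 2204 (14) under Af, from 103 to 3224 (349) over both exposures and from 0 to 1602 (1) for the interaction, highest with array weights in each. The cause was not tested. Differences near 0 turned sign for Ptger1 in WT without WT_Af 18 (0.024 on the log2 scale, lowest -0.303 among single libraries left out), for Ptger3 in WT with upper quartile scaling (0.0017), array weights (0.15), without both WT_PBS 17 and KO_Af 12 (0.34) and without single libraries (-0.368 to 0.338), and for Ptger3 in KO without single libraries (-0.289 to 0.113), all uncalled. With array weights Tbxa2r in WT (log2 -0.34, adjusted p = 0.044) and Ptger1 in KO (log2 -0.62, adjusted p = 0.00444) were called. Ptgdr2 was not tested with a filter of 2 CPM, and it had 8 to 40 reads per library.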
